A study of Mus musculus with 16 samples.

Results

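The 83 tested genes described here encode the protein part of the cytosolic ribosome. They were chosen by name: every mouse gene whose symbol starts with Rpl or Rps and a digit, together with Rplp0, Rplp1, Rplp2 and Rpsa, without names that end in -ps and without the Rps6k kinases. The RefSeq table held 95 such symbols, 84 of them had a probe that could be named, and 83 passed the filter on dim probes, out of 12298 genes tested. Rpl3l, the muscle paralog of Rpl3, had a probe but was not tested. The other 11 had no named probe, among them the paralogs Rpl10l, Rps4l and Rps27rt. One of the 83, Rps19bp1, meets the naming rule but encodes a binding partner of Rps19 and not a subunit of the ribosome.

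The cytosolic ribosome has a small subunit, which holds the messenger RNA and reads the codons, and a large subunit, which joins the amino acids. Most of the subunit proteins are normally needed in the same amount, and the messages belong to the most abundant of a growing cell. Many start with a run of pyrimidines, the terminal oligopyrimidine tract, through which mTOR signalling controls their translation. Red cell precursors lose ribosomes as they mature, while activated leukocytes and tumour cells make many.

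Each of 16 Agilent mouse arrays compared 1 sample in Cy5 with a reference in Cy3. The labels describe female C57Bl/6 mice, called athymic in the treatment text only, that carried subcutaneous Hepa1-6 tumours (a mouse hepatoma line), 10 days after inoculation. Whole blood put into RNAlater gave 8 samples, and 8 came from mashed tumours, as the fraction that a density gradient had enriched for inflammatory cells. Blood of untreated female C57Bl/6 mice was the Cy3 reference on all 16 arrays, so it counts as 1 control sample, and dyes were not swapped. Blood and tumour fraction were extracted with different kits, and each slide of 4 arrays held 1 group, so that group, kit, slide and scan cannot be told apart. The labels number the samples but do not say whether each was a separate mouse. The p-values therefore measure the spread between these samples only.

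The tumour fraction was a mixture. Of the marker lists, 4 of 6 tested hepatoma genes, 5 of 8 macrophage genes and 5 of 8 proliferation genes were called higher in it than in the reference. Called lower were 6 of 6 B cell genes, 5 of 5 platelet genes, 8 of 10 erythroid genes, 6 of 11 T cell genes and 3 of 6 neutrophil genes. Among all genes tested, 9.31% were called higher and 10.1% lower. The 10 erythroid markers held 5.11% to 5.78% of the summed Cy5 signal of blood and 0.187% to 0.277% of that of the tumour fraction. All tested probes of haemoglobin and other erythroid genes, a wider set, held 10.8% to 14.8% and 0.471% to 0.718%. In such bulk RNA, fewer cells of one type and less RNA per cell cannot be told apart. The number of arrays limits the precision. Well above background in Cy5 were 24.8% to 36.3% of spots on the blood arrays and 51.1% to 65.8% on the tumour fraction arrays.

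The starts of the members that differed most are shown first, because the pyrimidine run at the start is the best known shared feature of these messages. RefSeq promoter entries on GRCm38.p6 matched 63 of the 83 members. Each line gives 15 bases before and 15 bases from the annotated start on, 5′ to 3′ on the gene's strand. The longest run of C and T anywhere in these 30 bases is in capitals. Where a gene had several annotated starts, that with the longest run was taken. The first 5 genes had the highest differences between tumour fraction and blood among members with an entry, which Rps20, Rps27a and Rpl30 lacked. Rps27 was called lower in blood, and the last 4 had the lowest differences, apart from Rps14, which had no entry.
Rpl22l1 (chr3:28805493-28805522, plus strand): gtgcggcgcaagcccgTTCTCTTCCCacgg
Rps27l (chr9:66946071-66946100, plus strand): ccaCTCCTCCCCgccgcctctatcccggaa
Rps18 (chr17:33955651-33955680, minus strand): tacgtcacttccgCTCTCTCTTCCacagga
Rpl27a (chr7:109519180-109519209, plus strand): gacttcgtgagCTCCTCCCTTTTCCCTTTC
Rpl6 (chr5:121204486-121204515, plus strand): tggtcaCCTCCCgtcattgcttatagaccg
Rps27 (chr3:90213634-90213663, minus strand): atttccgctttcgCTCCTTTCCggcggtga
Rpl4 (chr9:64173372-64173401, plus strand): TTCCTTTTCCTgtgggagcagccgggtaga
Rps25 (chr9:44407699-44407728, plus strand): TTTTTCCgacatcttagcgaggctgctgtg
Rps9 (chr7:3704026-3704055, plus strand): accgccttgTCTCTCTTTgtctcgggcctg
Rpl41 (chr10:128549154-128549183, minus strand): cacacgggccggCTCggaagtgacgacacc

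The run measured 10 bases in Rpl22l1, 9 in Rps27l, 11 in Rps18, 19 in Rpl27a, 6 in Rpl6 and 9 in Rps27. It measured 11 in Rpl4, 7 in Rps25, 9 in Rps9 and 3 in Rpl41. Runs were measured within the window only, and those of Rpl27a, Rpl4 and Rps25 reached its edge, so they may be longer. In Rps27l, Rpl6, Rpl4, Rps25 and Rpl41 the run lay wholly before the annotated start. Of the 16 members called higher in the tumour fraction than in blood, 11 had an entry, and their runs ranged from 2 bases in Rps3a1 to 19, with a median of 6 and 5 runs of at least 8 bases. Long and short runs thus stood in both sets. Over the 63 members the median of the longest run was 7 bases, against 5 over the 27025 genes of the promoter table. A run of at least 8 bases stood in 27 members (42.9%) and in 13.9% of all genes. Among genes with 1 annotated start it stood in 22 of 54 members (40.7%) and in 11.7% of all. These are matches of letters in the window. They do not show which start a cell used or that a run was part of the message.

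The members were among the brightest genes on the arrays. Their median log2 intensity, averaged over both colours, was 14.3, against 7.75 for all genes tested. Of the 116 genes with a log2 intensity of at least 14, 43 were members. Only a few were dim. Rpl39l, a paralog of Rpl39 with a narrow expression, was well above background in Cy5 on no blood array and on 8 of 8 tumour fraction arrays, and Rpl21 on 2 blood arrays and 8 tumour fraction arrays. No spot was saturated, because very bright spots had been read in a second scan at low detector voltage and scaled up by the scanner program. In Cy5 that scan supplied 10.8% to 27.7% of the members' values on blood arrays and 74.7% to 89.2% on tumour fraction arrays. In Cy3 it supplied 27.7% to 38.6% and 30.1% to 47% of them. The scan thus moved with the groups, and its part in the differences below was not tested.

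As a share of all Cy5 signal, the members held more in the tumour fraction than in blood. Their brightest probes summed to 7.07%, 7.54% and 9.46% of the Cy5 signal of blood (lowest, median and highest of 8 arrays), and to 11.5%, 12.4% and 13.3% of that of the tumour fraction. The groups did not overlap, and the highest blood value belonged to sample 889. In a further sum, chosen after seeing the data, haemoglobin and other erythroid probes were left out of the total. The shares then ranged from 8.25% to 10.6% in blood and from 11.6% to 13.4% in the tumour fraction, again with no overlap. The Cy3 reference, labelled as the same untreated blood throughout, gave 10.0% to 11.1% on the blood arrays and 6.98% to 9.34% on the tumour fraction arrays. The reference therefore also differed between the sets of arrays, in the opposite direction, and the ratio of colours carries that difference.

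**Figure D1:**
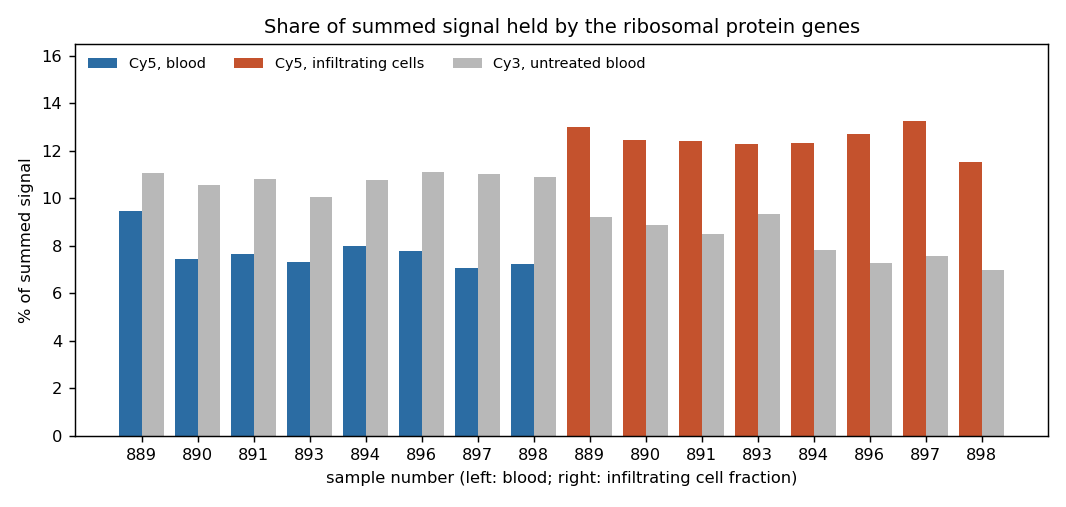
Bars give, for each array, the percentage of summed background-subtracted signal held by the 83 ribosomal protein genes, in Cy5 (coloured) and in the Cy3 reference (grey); the axis starts at 0. Cy5 shares lie between 7.07% and 9.46% in blood and between 11.5% and 13.3% in the infiltrating cell fraction, while the grey bars are lower on the right than on the left.

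Against untreated blood, nearly all members had a lower ratio in the blood of tumour-bearing mice, mostly by less than 2-fold. Of the 83 members, 79 were below 0 on the log2 scale, and their median was -0.41, against -0.02 over all genes tested. Called lower (adjusted p under 0.05 with limma and Benjamini-Hochberg over all tested probes, and at least 2-fold) were 4 members, 4.82%, where 0.244% of all genes were called lower. No member was called higher, where 0.504% of all genes were. Without the minimum fold, 65 members were lower and 2 higher at the same adjusted p, against 29% and 20.8% of all genes. Marker genes of blood cells also moved in this comparison. Of 6 neutrophil genes 4 were called higher, and of 6 B cell genes 3 were called lower. In the other marker lists only 1 of 5 platelet genes was called, as higher. Whether the mix of cells had a part in the members' ratios was not tested.

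The 4 called members were 3 small subunit proteins, Rps18, Rps20 and Rps27, and Rpl22l1, the paralog that can take the place of the RNA-binding large subunit protein Rpl22. Rpl22l1 had log2 ratios of -1.71, -1.21 and -0.55 (lowest, median and highest), with a mean of -1.18 (SE 0.09, adjusted p = 9.9e-08). Rps18, a protein of the head of the small subunit, had -1.71, -1.27 and -0.32, with a mean of -1.15 (SE 0.11, adjusted p = 7.4e-07). All 8 arrays were below 0 for both genes, and sample 889 was the highest each time.

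Rps27, a zinc-finger protein of the small subunit, had ratios of -1.74, -1.20 and -0.045 and a mean of -1.05 (SE 0.13, adjusted p = 8.2e-06). Rps20, next to Rps18 in the head, had -1.57, -1.07 and -0.23 and a mean of -1.01 (SE 0.11, adjusted p = 1.9e-06). Both stood close to the 2-fold limit. Leaving out sample 896 or 897 took Rps27 to -0.998 or -0.95, and leaving out 896, 897 or 898 took Rps20 to between -0.93 and -0.99, in each case short of 2-fold.

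The members of the highest ratios were near 0. Rpl41, a very short and basic large subunit peptide, had a mean of 0.27 (SE 0.07, adjusted p = 0.0046) and was above 0 on all 8 arrays. Rps9, which binds early in small subunit assembly, had 0.14 (SE 0.05, adjusted p = 0.026). Neither reached 2-fold. Rplp1, Rps19 and Rpl10 were between -0.06 and 3e-04, with adjusted p of 0.39 or more.

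Sample 889 stood apart from the other blood samples. The median over the members was -0.05 on its array and between -0.75 and -0.20 on the other seven. Over the members, its ratios contributed the lowest correlation with another blood array, 0.32, while the other seven correlated with each other at 0.73 to 0.96. These points share 1 reference and are not independent. On the array of sample 889, 48 members were below 0, and 60 members were below 0 on every other blood array. When each blood sample was left out in turn, 2 to 4 members were called lower and the median over the members ranged from -0.48 to -0.37. The first blood slide alone, which held sample 889, gave 1 called member and a median of -0.28, and the second slide alone gave 5 and -0.55. Among all genes, 0.0976% were called lower on the first slide and 0.455% on the second.

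**Figure D2:**
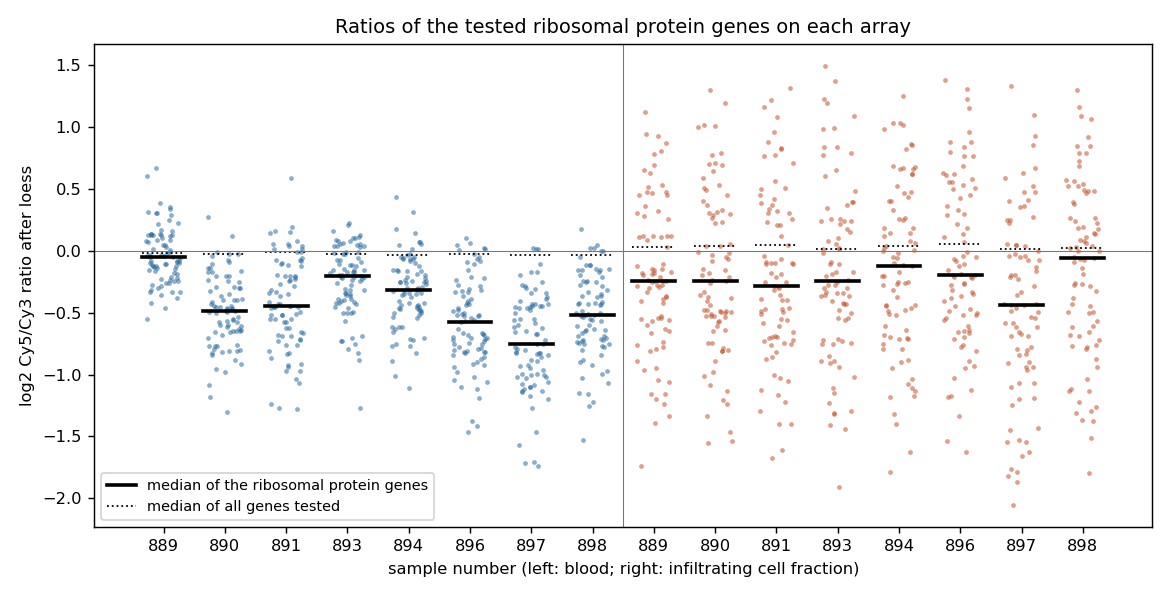
Each point is 1 of the 83 ribosomal protein genes on 1 array, as its log2 Cy5/Cy3 ratio after loess; thick bars are the median over these genes and dotted bars the median over all genes tested. Thick bars lie below dotted bars on all 16 arrays, least so for blood sample 889 (-0.05), and the points spread wider in the infiltrating cell fraction.

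The tumour fraction was set against the same untreated blood. The members spread in both directions. Called higher were 3 of 83 (3.61%), below the 9.31% of all genes called higher, and called lower were 11 (13.3%), where 10.1% of all genes were. The median over the members was -0.23, against 0.05 over all genes. Without the minimum fold, 47 members were lower and 25 higher, against 35.1% and 41.3% of all genes. This comparison and the one for blood share the reference, so the values of both are given side by side and their likeness is not a result.

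Higher were Rps27l, Rpl27a and Rps27a. Rps27l, the paralog of Rps27 known as a p53 target, had ratios of 1.12, 1.27 and 1.33 and a mean of 1.26 (SE 0.04, adjusted p = 3.1e-09), and -0.36 in blood. Rpl27a, of the large subunit, had a mean of 1.104 (SE 0.07, adjusted p = 3.2e-07), and -0.39 in blood. Rps27a, made as a fusion with ubiquitin, had a mean of 1.09 (SE 0.08, adjusted p = 1.3e-06), and -0.71 in blood. All 8 tumour fraction arrays were above 0 for the 3 genes. Rpl31 (0.98) and Rps20 (0.89) came next and did not reach 2-fold, though Rpl31 did at 1.001 without sample 893.

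Among the lowest were Rps25, Rpl4, Rps29 and Rps14. Rps25, a small subunit protein used in initiation at internal entry sites, had ratios of -2.05, -1.65 and -1.34 and a mean of -1.69 (SE 0.08, adjusted p = 4.2e-08). Rpl4, which lines the exit tunnel of the large subunit, had -1.79, -1.52 and -1.31 and a mean of -1.53 (SE 0.06, adjusted p = 1.2e-08). Every tumour fraction array was below every blood array for both. Rps29 had a mean of -1.29 (SE 0.08) and Rps14 of -1.25 (SE 0.10).

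Also among those called lower were Rps4x (-1.25), the X-linked form of Rps4, Rps9 (-1.18), Rpl11 (-1.14), Rpl23 (-1.09) and Rps3 (-1.04). Rps3 lies at the messenger entry of the small subunit, and its call was lost without sample 893 (-0.998) or 897 (-0.98). None of the 11 kept its direction under every centring, as given below.

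The direct comparison of the groups takes the difference of their ratios. Here 16 members (19.3%) were called higher in the tumour fraction, where 12.1% of all genes were, and 5 (6.02%) were called lower, where 11.8% of all genes were. The median difference was 0.13, against 0.08 over all genes. Without the minimum fold, 37 were higher and 21 lower, against 42.4% and 32.5% of all genes. Complete separation of the 8 tumour fraction arrays from the 8 blood arrays was found upward for 20 members (24.1%), against 24.8% of all genes, and downward for 10 members (12%), against 17.4%. By subunit, 7 of 31 small subunit members were called higher and 3 lower, with a median of 0.34. Of 43 large subunit members, 7 were called higher and 2 lower, with a median of 0.10. Of the 5 paralogs, 2 were called higher. Of the 3 stalk proteins, which recruit the elongation factors, none was called.

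The highest difference was that of Rpl22l1, the paralog. From blood (-1.71, -1.21 and -0.55) to tumour fraction (0.59, 0.86 and 1.03), it was 2.02 (SE 0.13, adjusted p = 1.4e-10), which is 4.06-fold. The groups lay on opposite sides of 0. Its partner Rpl22 differed by 0.45 (SE 0.10, adjusted p = 0.00096), with overlapping groups.

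Rps20 followed with 1.90 (SE 0.15, adjusted p = 4.9e-09), from -1.57, -1.07 and -0.23 in blood to 0.48, 0.88 and 1.16 in the tumour fraction. Rps27a differed by 1.80 (SE 0.14, adjusted p = 3.5e-09), from -1.12, -0.76 and -0.081 to 0.86, 1.05 and 1.49. Rps27l differed by 1.62 (SE 0.06, adjusted p = 4.2e-14), from -0.46, -0.41 and -0.11 to 1.12, 1.27 and 1.33. None of these groups overlapped. Its partner Rps27 differed by 0.88 (SE 0.18, adjusted p = 0.00036) and did not reach 2-fold, though without blood sample 889 it did, at 1.03.

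Rps18 differed by 1.53 (SE 0.17, adjusted p = 2.9e-07), from -1.71, -1.27 and -0.32 in blood to -0.13, 0.37 and 0.84. The other 11 called higher, in falling order, were Rpl27a (1.49), Rpl30 (1.49), Rpl6 (1.42), Rpl36a (1.28), Rpl36 (1.24), Rpl32 (1.22), Rps13 (1.19), Rpl31 (1.15), Rps28 (1.15), Rps2 (1.099) and Rps3a1 (1.003). For Rps13 the tumour fraction spot of sample 893 was left out as an outlier. Groups were apart for all 16. Rps3a1 lay on the limit and lost its call without any 1 of 5 blood samples and 3 tumour fraction samples, down to 0.95. Rps6, the substrate of the S6 kinases, was just short at 0.98 (SE 0.13, adjusted p = 2.6e-06), although its groups did not overlap, and it passed the limit, at up to 1.05, without any 1 of 6 samples.

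The 5 called lower were Rpl4, Rps25, Rps9, Rpl41 and Rps14. Rpl4 went from -0.25, -0.10 and 0.051 in blood, on 7 arrays because the spot of sample 889 was left out as an outlier, to the values above. Its difference was -1.43 (SE 0.07, adjusted p = 1.7e-11). Rps25 went from -0.65, -0.41 and 0.048 to -2.05, -1.65 and -1.34, a difference of -1.35 (SE 0.11, adjusted p = 6e-09). Neither gene's groups overlapped.

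Rps9 went from -0.028, 0.13 and 0.31 in blood to -1.40, -1.12 and -1.06, a difference of -1.32 (SE 0.07, adjusted p = 6.6e-12). Rpl41 went from 0.018, 0.24 and 0.61 to -1.55, -0.72 and -0.49, a difference of -1.12 (SE 0.14, adjusted p = 2.1e-06). Rps14, a small subunit protein whose loss is known from a myelodysplastic syndrome, went from -0.32, -0.20 and 0.034 to -1.87, -1.24 and -0.75, a difference of -1.09 (SE 0.12, adjusted p = 5.3e-07). Again no groups overlapped. For Rps14 the blood spot of sample 889 was left out as an outlier, so 7 blood arrays entered, and the call was lost without tumour fraction sample 897 (-0.998).

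**Figure D3:**
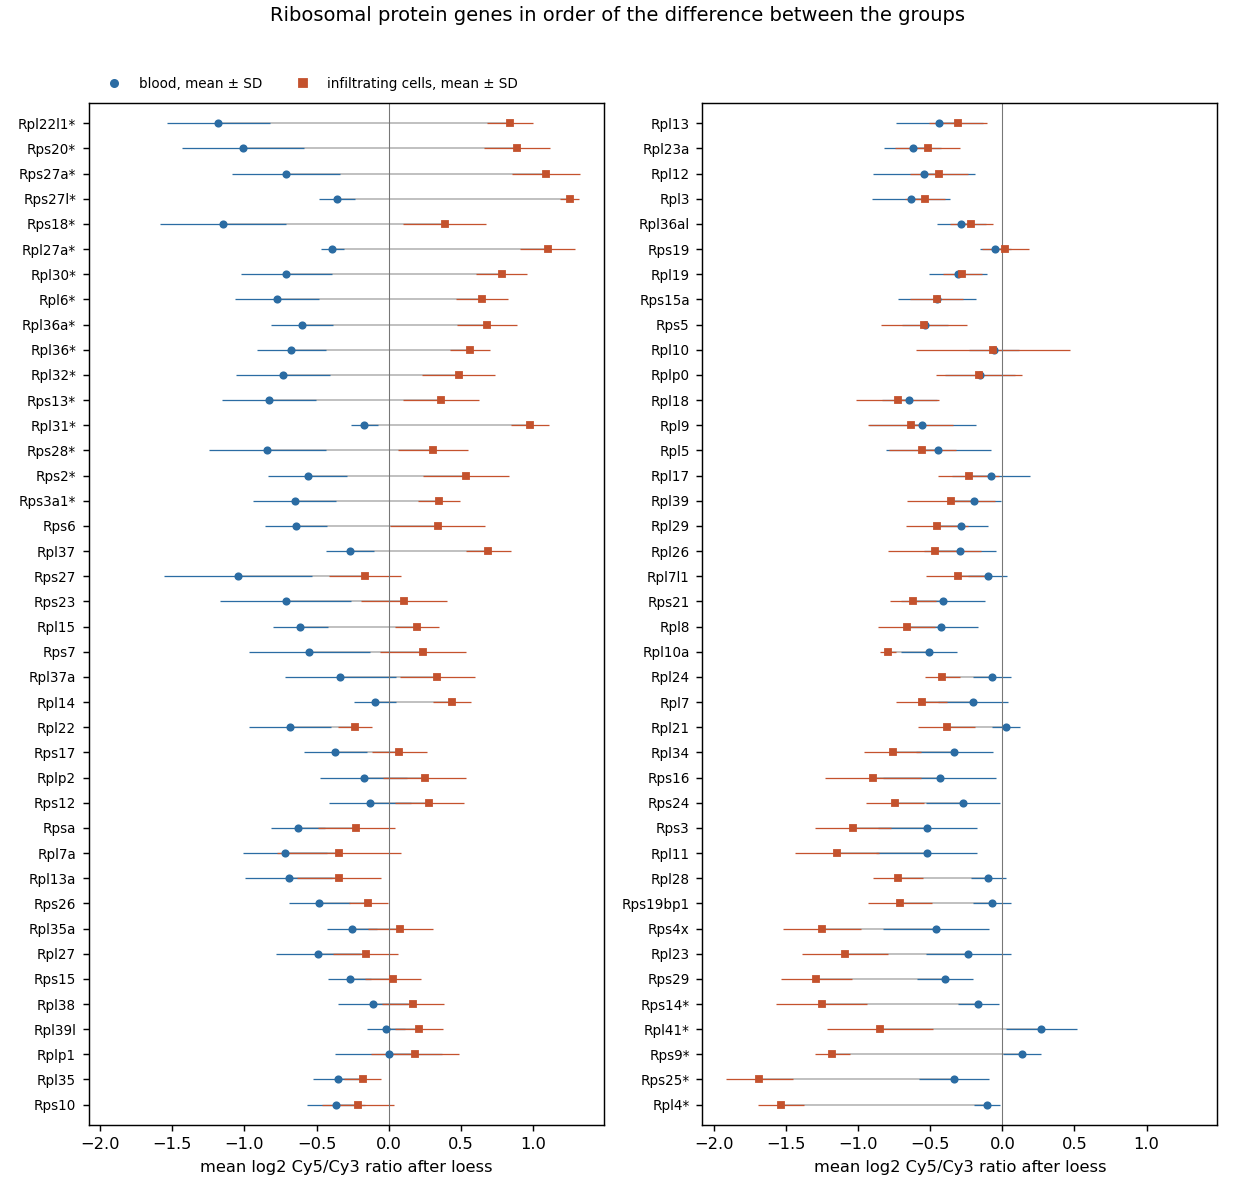
For 80 of the 83 ribosomal protein genes, the mean log2 Cy5/Cy3 ratio after loess in blood (circles) and in the infiltrating cell fraction (squares) is shown with the SD over 8 arrays, in order of the difference; a star marks the 21 genes called different. Rpl22l1 tops the left panel with a difference of 2.02, and Rpl4 ends the right panel with -1.43.

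Many members with a role of their own did not reach 2-fold. The stalk base Rplp0 differed by -0.01, and Rplp1 by 0.18 and Rplp2 by 0.42 (SE 0.13, 0.16 and 0.14). Rpl5 and Rpl11, which with the 5S RNA bind Mdm2, differed by -0.11 and -0.62 (SE 0.14 and 0.15). Rpl11 was called lower in the tumour fraction against the reference, while Rpl5 stood at -0.55 there.

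Rps19, mutated in Diamond-Blackfan anaemia, differed by 0.071 (SE 0.07), on a dim probe. Rpl3, at the peptidyl transferase centre, differed by 0.098 (SE 0.10), Rpl13a, known from interferon-gamma-dependent silencing, by 0.35 (SE 0.14) and Rpl38, needed for Hox messages, by 0.28 (SE 0.11). Rpsa, the laminin receptor, differed by 0.41 (SE 0.11). Rps19bp1, the gene that is not a ribosomal protein, differed by -0.64 (SE 0.09) and was not called. In this comparison Rps19bp1 (adjusted p = 5.9e-06), Rpl11 (0.0012), Rpsa (0.0032), Rplp2 (0.011), Rpl38 (0.031) and Rpl13a (0.032) passed the limma test and missed only the 2-fold limit. Rplp1, Rps19, Rpl3, Rpl5 and Rplp0 had adjusted p from 0.31 to 0.95, which does not show that the groups were alike.

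Rpl10, which joins the large subunit last, differed by -0.0083 (SE 0.18). The spot of tumour fraction sample 893 read 8 units in Cy3 and 271 in Cy5, where the other seven tumour fraction arrays read 8888 to 11104 units in Cy3. Without that sample the mean against the reference moved from -0.06 to -0.24.

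Paralogs are given beside their partners. Rpl36a was called higher (1.28) and its near copy Rpl36al was not (0.072, SE 0.08). Rpl39 differed by -0.16 (SE 0.12), and Rpl39l read at most 29 units in Cy5 in blood and 45.5 to 223 units in the tumour fraction, so that no fold is given. Rpl7 and Rpl7l1 differed by -0.35 and -0.20 (SE 0.10 and 0.09). No pair was tested against each other, and whether the probes also bound messages of near copies was not tested.

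Probes of the same gene did not always match. Of the 30 members with several tested probes, 12 had probes whose differences had opposite signs, and in 7 the probes lay at least 1 log2 unit apart. No gene had probes called in opposite directions. Rpl6 was called from its brightest probe (1.42), while its second probe gave -0.53 (SE 0.12). Rps2 gave 1.099 and -0.23, and Rps25 gave -1.35 and, on a dim probe, 0.28.

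In other genes the brightest probe was not the one called. Rpl7 gave -0.35 from the brightest probe and 1.59 and 0.07 from the others. Rps21 gave -0.21 and 1.08. Rpl36a gave 1.28, 1.14 and 1.09, all called, and Rps18 gave 1.53 and 1.16, both called. With the mean over probes in place of the brightest, 12 members were called higher and 4 lower, where 9.12% of all genes were higher and 10.4% lower.

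**Figure D4:**
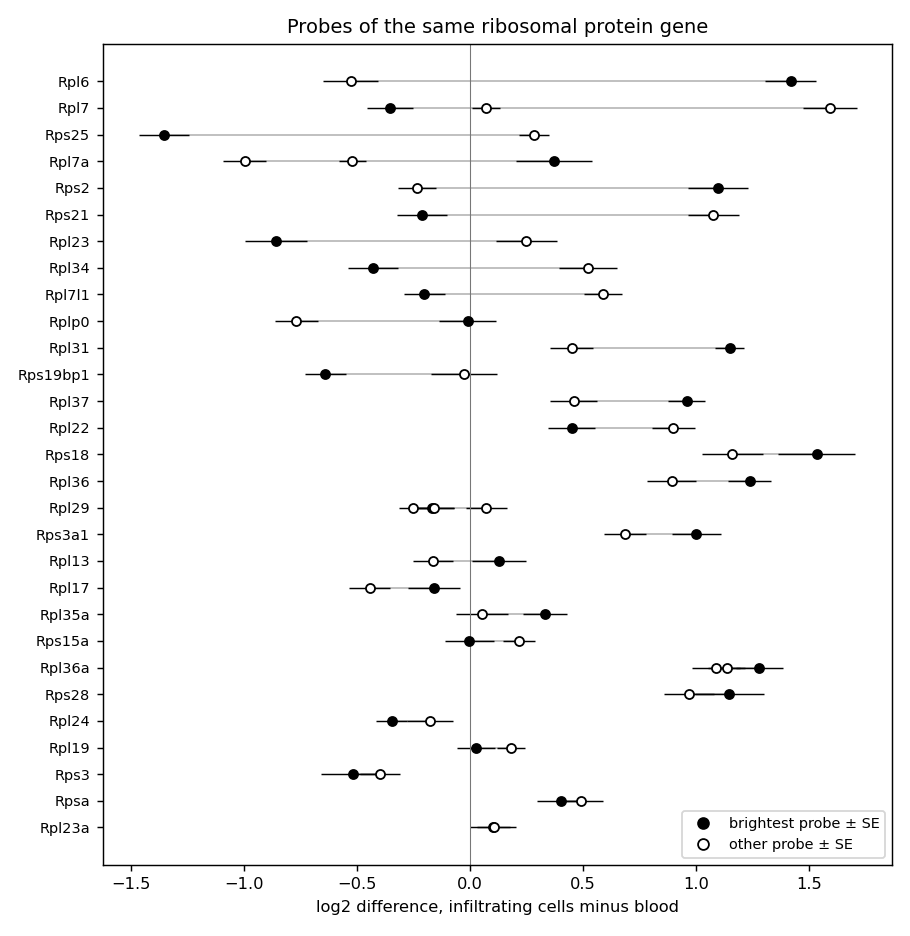
Circles give the log2 difference between infiltrating cells and blood for each tested probe of 29 of the 30 ribosomal protein genes with several probes, with its SE; filled circles are the brightest probe, on which the calls rest. Rpl6, Rpl7 and Rps25 at the top have probes on both sides of 0, while the 3 probes of Rpl36a lie between 1.09 and 1.28.

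How the arrays were centred decided the level of the members in the tumour fraction. Loess pulls bright genes toward a ratio of 0 at each intensity, and the members are many of the bright genes. In the tumour fraction, summed Cy5 signal was 35690000 to 148700000 units against 18460000 to 21800000 in Cy3. The median over the members against the reference was -0.23 after loess, -0.31 after a loess fitted without them, -0.02 in the authors' deposited ratio, 0.65 with each array set to its summed signal, 1.35 with spike-in spots and 1.99 with the array median. All genes tested had 0.05 after loess and 1.20 with the array median. With the array median 78 members were called higher and none lower, where 55.7% of all genes were called higher and 3.31% lower. Without stating the centring, no direction of the members as a group in the tumour fraction can be given.

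In blood the direction held. The median over the members was -0.41 after loess, -0.50 in the deposited ratio, -0.67 with summed signal, -0.87 with spike-in spots and -0.90 with the array median. Below 0 under all 6 centrings were 78 members, and Rpl22l1, Rps18, Rps20 and Rps27 were called lower under all 6. For Rpl41 the mean lay between 0.0038 and 0.27.

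In the comparison of the groups, 15 of the 16 members called higher were so under all 6 centrings, and the exception was Rps3a1. With the array median, spike-in spots and summed signal, 81, 76 and 54 of the 83 members were called higher. Among all genes, 60%, 45.5% and 26% were. These settings could thus hardly remove a higher call. No member was called lower under all 6, and Rpl4, Rps25, Rps9, Rpl41 and Rps14 each became positive with spike-in spots and with the array median. Cy5 signal alone put 46 members higher and none lower, where 18.6% of all genes were higher and 14.6% lower. That signal was taken after loess, with the mean intensity of both colours made alike between arrays, so the reference still entered it. Among the 16 were 14 of the 46, while Rps27a (0.83, SE 0.13) and Rpl30 (0.42, SE 0.15) were not called. Rpl22l1 was at 1.64 (SE 0.13) there and Rps27l at 2.34 (SE 0.09). Rpl4 was at 0.13, Rpl41 at 0.13 and Rps9 at -0.11, none of them called, while Rps25 was at 1.09 and Rps14 at 1.37, both called higher.

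**Figure D5:**
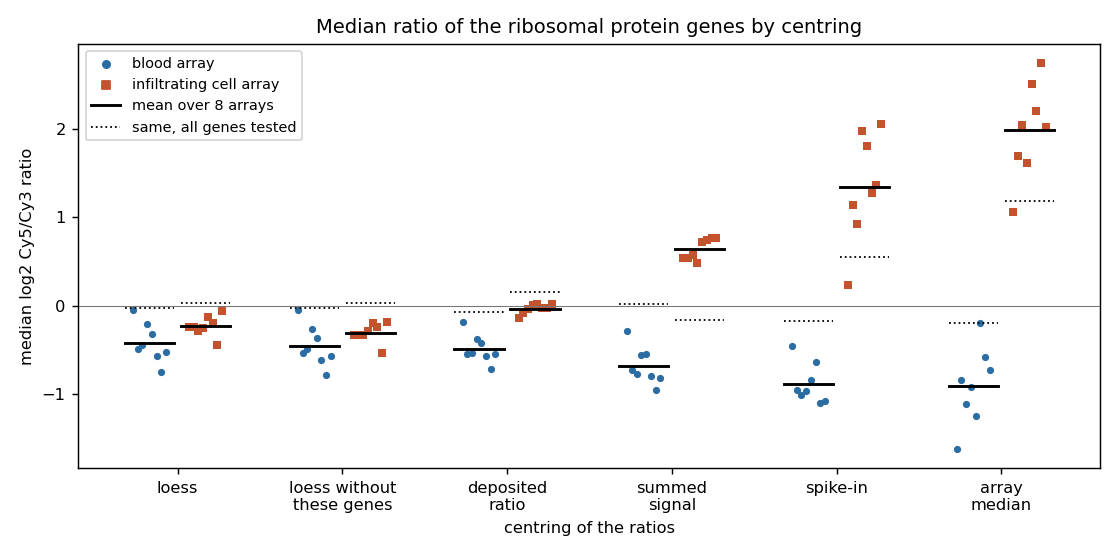
Points give the median log2 Cy5/Cy3 ratio of the 83 ribosomal protein genes on each array under 6 centrings, with the mean over 8 arrays as a bar and the same for all genes tested as a dotted bar. The blood bars stay below 0 throughout, from -0.42 after loess to -0.90 with the array median, while those of the infiltrating cell fraction move from -0.23 to 1.98.

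Set against their own median, the members are given relative to each other, with the level of the group taken out. This scale takes the ratios before loess. Any change of the ratio with intensity therefore stays in it, and dim and bright members are not on equal terms. On that scale, chosen after seeing the data, Rpl22l1 was 1.93 (SE 0.15) above the median member in the tumour fraction minus blood. Rps20 was 1.64 (SE 0.14) above it, Rps27a 1.59 (SE 0.15) and Rps27l 1.54 (SE 0.14). Below it were Rpl4 at -1.497 (SE 0.15), Rps25 at -1.46 (SE 0.14), Rps9 at -1.44 (SE 0.14), Rpl41 at -1.40 (SE 0.16) and Rps14 at -1.37 (SE 0.16). The dim probes of Rpl21 and Rpl39l, at -2.50 and -2.30, were lower still, where Rpl21 was at -0.41 after loess. Of the 16 members called higher, 12 were called on this scale as well, and 11 members were called lower. On the same scale 5.77% of all genes were called higher and 59.3% lower.

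Other genes of the translation apparatus were taken from lists. Among 15 elongation factors and other messages with a pyrimidine start, 7 were called higher and 5 lower in the comparison of the groups. In that comparison 12.1% of all genes were called higher and 11.8% lower. Npm1, a nucleolar chaperone, was at 3.30 (SE 0.12), and Pabpc1, the poly(A)-binding protein, at -3.71 (SE 0.13). Both kept their direction under the 6 centrings.

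Of 36 initiation and termination factors, 12 were called higher, with Eif4h at 2.40, and 4 lower, with Eif5 at -3.36. Of 42 ribosome biogenesis genes, 10 were called higher, with Pno1 at 1.93, and 3 lower, with Noc4l at -1.69. The shares over all genes were again 12.1% higher and 11.8% lower. Ncl, the nucleolar protein nucleolin, was the 1 biogenesis gene called higher in blood, at 1.85, where 0.504% of all genes were. Of 14 RNA polymerase I genes none was called in any of the comparisons. Of 19 regulators, Myc, which drives ribosome synthesis, was called higher at 2.10 and its partner Max lower at -2.06. These calls are those after loess. With the array median, 34 initiation and termination factors, 35 biogenesis genes, 13 polymerase genes and 12 regulators were called higher. No gene of these lists was lower there, where 60% of all genes were higher and 2.72% lower. With spike-in spots, in the same order, 32, 28, 9 and 11 were higher and 1, 0, 0 and 0 lower. Among all genes, 45.5% and 9.51% were.

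Mitochondrial ribosomal proteins, the nearest relatives in function, had a median difference of 0.51. Of 76 tested, 20 were called higher and 2 lower, with Mrpl13 at 2.24 and Mrps2 at -1.09. The shares over all genes were 12.1% and 11.8%. With the array median 73 were called higher and 0 lower, where 60% and 2.72% of all genes were. With spike-in spots 66 were called higher and 0 lower, where 45.5% and 9.51% of all genes were. In blood none of the 76 was called, 70 were below 0 and the median was -0.22.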

How the data were processed

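Spot intensities were deposited as median pixel signals of Cy5 and Cy3 with local background medians, and the scanner program was Feature Extraction, version 10.5.1.1 per the file headers and 9.1.3.1 per the submitters' processing notes. The authors' deposited ratio is a log10 value of Cy5 over Cy3, dye-normalised by that program, per the file headers. The log2 ratios used here were computed from the deposited intensities with limma 3.58.1 in R 4.3.3: normexp background correction (offset 50), loess within each array with control spots at weight 0, and outlier spots left out. Tested were the 26494 probes that the scanner marked above background on a minimum of 4 of the 8 Cy5 arrays of either group, or of 8 of the 16 Cy3 arrays; a gene is its brightest tested probe. Of 41174 probes, 23374 were named through RefSeq and 17800 were not. Groups were tested with lmFit and eBayes, and p-values adjusted by Benjamini-Hochberg over all tested probes. The fits were tested on simulated data. Genes named are the 5 highest and 5 lowest members of each comparison, a list of members with their own role or a paralog, members called, and up to 2 called genes a direction of other lists; some of these are not reported here. Members and lists were chosen with earlier results of these data known. Alternatives covered background correction, centring, filter, probes, slides and samples left out.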

Additional observations from a re-analysis of the deposited data

Results flagged for a closer look

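Within a group of 8 arrays, 98 sets of values were searched for an array that stood far from its neighbour (Dixon's test), and 7 were found. Chance would flag about 1 in 20 independent sets. These sets share arrays, and 5 of the 7 came from 1 array, so the number cannot be set against chance. The sets of Rpl4 and Rps14 in blood and of Rps13 in the tumour fraction held 7 values and could not be flagged. On the array of tumour fraction sample 897, 5 genes stood apart. Rpl11 at -1.82, Rpl5 at -1.07, Rpl7 at -0.94 and Rplp2 at -0.35 were the lowest of their group there, and Rps19bp1 at -0.23 was the highest. Rpl10 stood at 1.19 on the array of sample 893, where its spot was nearly empty in both colours. The share of Cy5 signal held by the members was 9.46% in blood sample 889.

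The difference between tumour fraction and blood was itself tested by limma and passed the adjusted p of 0.05 and 2-fold in 21 members. Higher in the tumour fraction were Rpl22l1 (2.02), Rps20 (1.90), Rps27a (1.80), Rps27l (1.62), Rps18 (1.53), Rpl27a (1.49), Rpl30 (1.49), Rpl6 (1.42), Rpl36a (1.28), Rpl36 (1.24), Rpl32 (1.22), Rps13 (1.19), Rpl31 (1.15), Rps28 (1.15), Rps2 (1.099) and Rps3a1 (1.003). Lower were Rps14 (-1.09), Rpl41 (-1.12), Rps9 (-1.32), Rps25 (-1.35) and Rpl4 (-1.43), on the log2 scale after loess. The members shared arrays, slides and kits, and whether these values come from cell types, depth of scan or kit was not tested.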

How the results depend on the processing

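Counts called lower in blood (4) and the median over the members there (-0.41) depended on the setting. The count was 2 with no background correction, 29 with the array median and 29 with spike-in spots. It was 65 with no minimum fold, 1 on the first slide alone, 9 with summed signal and 0 with each array set to the members' own median. Of all genes, 7.19% were called lower with the array median, 6.5% with spike-in spots and 2.6% with summed signal. The share was 0.122% with no background correction, 29% with no minimum fold, 0.0976% on the first slide and 0.0407% with the members' own median. Called higher were 0 in all but 1 setting, with 2 at no minimum fold. The median was -0.90 with the array median, -0.87 with spike-in spots, -0.67 with summed signal and 0.0076 with the members' own median, which is near 0 by construction.

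For the tumour fraction against the reference (3 higher, 11 lower, median -0.23), called higher were 78 with the array median, 59 with spike-in spots, 5 with the deposited ratio, 25 with no minimum fold, 26 with summed signal and 7 with the members' own median. Of all genes, 55.7%, 37.6%, 25.8%, 41.3%, 19.4% and 8.16% were called higher in these settings. Called lower were 0 with the array median and with spike-in spots, 3 with the deposited ratio, 47 with no minimum fold, 1 with summed signal and 5 with the members' own median. In the same order, 3.31%, 9.16%, 21%, 35.1%, 27.7% and 43.8% of all genes were called lower. The median was 1.99 with the array median, 1.35 with spike-in spots, -0.024 with the deposited ratio, 0.65 with summed signal and 0.0046 with the members' own median.

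Between the groups (16 higher, 5 lower, median 0.13), called higher were 81 with the array median, 76 with spike-in spots, 25 with the deposited ratio, 37 with no minimum fold, 46 with Cy5 signal alone and 54 with summed signal. Of all genes, 60%, 45.5%, 34.4%, 42.4%, 18.6% and 26.0% were called higher in these settings. Called lower were 9 with no background correction, 3 with subtraction, 0 with the array median, with spike-in spots and with Cy5 signal alone, 2 with the deposited ratio, 21 with no minimum fold, 8 on the first slide alone, 1 with summed signal and 11 with the members' own median. In the same order, 9.33%, 21.2%, 2.72%, 9.51%, 14.6%, 22.6%, 32.5%, 13%, 31.2% and 59.3% of all genes were called lower. The median was 2.82 with the array median, 2.15 with spike-in spots, 0.52 with the deposited ratio, 1.12 with Cy5 signal alone, 1.25 with summed signal and -0.073 with the members' own median.

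A sign change is counted where the gene was called at first. Against the reference, with the array median and then with spike-in spots, the tumour fraction gave 1.18 and 0.54 for Rpl11, 1.23 and 0.59 for Rpl23, 1.08 and 0.45 for Rps14, 1.03 and 0.39 for Rps29, 1.27 and 0.63 for Rps3, 1.09 and 0.45 for Rps4x and 1.07 and 0.43 for Rps9. With the array median alone, Rpl4 gave 0.64 and Rps25 0.60. Between the groups, in the same order, the values were 1.29 and 0.79 for Rpl4, 1.49 and 0.82 for Rpl41, 1.41 and 0.91 for Rps14, 1.43 and 0.77 for Rps25 and 1.44 and 0.78 for Rps9. Cy5 signal alone gave 0.13 for Rpl4, 0.13 for Rpl41, 1.37 for Rps14 and 1.09 for Rps25, and summed signal gave 0.0052 for Rps14. The cause was not tested.

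Leaving out 1 sample at a time gave 0 higher, 2 to 4 lower and a median of -0.48 to -0.37 in blood; 3 to 4 higher, 10 to 11 lower and -0.27 to -0.23 in the tumour fraction; and 15 to 18 higher, 4 to 5 lower and 0.078 to 0.19 between the groups. Whether equal sample numbers mark the same mouse is not stated. Deviations of samples with the same number correlated at -0.18 to 0.22, at over 0.1 for 6 of 8 numbers, and 3 of 8 samples correlated best with their own number, so the numbers were not taken as pairs. With the number as a replicate block, 16 members were called higher and 5 lower, with a median of 0.13. The slide as a random block, no filter, a stricter filter and a loess fitted without the members left every count within 1.5 times. Dim probes such as Rpl39l and Rpl21 limit what can be said of those genes, and settings for the members' own median, summed signal and the loess without members were chosen after seeing the data.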
